A study of Mus musculus with 6 samples.

Results

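The barcodes described here were those of the fracture callus richest in azurophil granule transcripts, a population proposed as granulocyte-monocyte progenitors from Elane, Prtn3, Mpo and Ctsg. A barcode was a member if it had at least 1000 UMIs (unique molecular identifiers, each standing for 1 captured transcript), at most 10% mitochondrial UMIs, at least 10 UMIs summed over these 4 genes, fewer than 5 UMIs summed over C1qa, C1qb and C1qc, and no Cd79a UMI. The rule kept 465 of the 38001 barcodes that passed its limits on UMIs and mitochondrial share, out of 46944 in the files. Since the members were chosen by the UMIs of these 4 genes, their levels are given as a description with no test.

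Calluses of 12-week-old mice were taken 14 days after a femoral fracture and sequenced as 3′ single-cell libraries. The control libraries (labelled wt) came from Piezo1f/f mice and the libraries labelled knockout from Piezo1Col2a1 mice. The latter carried Piezo1f/f together with a tamoxifen-inducible Cre under the Col2a1 promoter of chondrocytes. Each group had 3 libraries, and mice of both groups had been given tamoxifen at 75 mg/kg for 5 days from day 5 after modelling. The labels of the knockout libraries write the genotype as Col2CreERT; Piezo3-/-, so the name Piezo1 was taken from the methods of the study. Deleted and intact Piezo1 transcripts count alike in a 3′ library, and the Cre is driven in a cell type other than the one described here. The control libraries held 69361237, 77384286 and 80735192 UMIs and the knockout libraries 57626530, 103784364 and 102513582.

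In bone marrow, granulocyte-monocyte progenitors and the promyelocytes that follow them fill the azurophil (primary) granules with the serine proteases neutrophil elastase (Elane), proteinase 3 (Prtn3) and cathepsin G (Ctsg) and with myeloperoxidase (Mpo). Transcription of these genes stops as the cell moves on to the specific (secondary) granules that hold lactoferrin (Ltf), neutrophilic granule protein (Ngp) and cathelicidin (Camp), so azurophil transcripts mark a stage that passes quickly. Kit, the receptor for stem cell factor, is carried by the earlier progenitors and lost on the way to the promyelocyte.

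Replicate 1 of both groups stood apart. The control library of that number held 1 member and the knockout library 3, and comparisons across genes were therefore made over replicates 2 and 3, with 132 and 151 members in the controls and 88 and 90 in the knockout libraries. The gene list of replicate 3 differed from that of the other libraries in both groups, and values were computed on the 52081 genes common to all. Knockout replicate 3 carried Xist at 559 UMIs per 1000000 UMIs and no Ddx3y UMI, while the other libraries had at most 0.153 Xist and at least 51.6 Ddx3y, so this library went against the description of the mice as male. Between 4 and 36 barcode sequences were shared by any pair of libraries, but no member barcode was.

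The upstream sequences shown are those of the 4 genes of the rule, which sit on 3 chromosomes. Prtn3 (ENSMUSG00000057729, chromosome 10, 79874476 to 79883174 in GRCm38) and Elane (ENSMUSG00000020125, chromosome 10, 79886247 to 79888215) are neighbours separated by 3072 bases, Mpo (ENSMUSG00000009350) lies on chromosome 11 from 87793581 to 87804413, and Ctsg (ENSMUSG00000040314) on the minus strand of chromosome 14 from 56099881 to 56102574. The sequences come from RefSeq on GRCm38.p6, were taken from the 250 bases before each RefSeq start and end before the next annotated exon. That of Elane covers chr10:79886062-79886246, that of Prtn3 chr10:79879417-79879613, inside the first intron of the longest Prtn3 model, that of Mpo chr11:87793534-87793580, and that of Ctsg chr14:56102575-56102824. All are written 5′ to 3′ on the strand of the gene, and the capitals mark AGGAAGT, a sequence with the GGAA core that ETS factors such as PU.1 (Spi1) recognise.

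Elane: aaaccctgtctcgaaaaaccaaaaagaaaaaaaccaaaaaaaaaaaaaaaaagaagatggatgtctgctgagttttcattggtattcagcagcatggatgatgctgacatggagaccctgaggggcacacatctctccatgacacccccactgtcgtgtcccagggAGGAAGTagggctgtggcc
Prtn3: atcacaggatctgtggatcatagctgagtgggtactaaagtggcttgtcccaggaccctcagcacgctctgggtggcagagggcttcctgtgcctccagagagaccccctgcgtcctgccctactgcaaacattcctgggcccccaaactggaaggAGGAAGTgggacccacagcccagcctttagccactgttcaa
Mpo: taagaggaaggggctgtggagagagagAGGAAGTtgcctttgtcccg
Ctsg: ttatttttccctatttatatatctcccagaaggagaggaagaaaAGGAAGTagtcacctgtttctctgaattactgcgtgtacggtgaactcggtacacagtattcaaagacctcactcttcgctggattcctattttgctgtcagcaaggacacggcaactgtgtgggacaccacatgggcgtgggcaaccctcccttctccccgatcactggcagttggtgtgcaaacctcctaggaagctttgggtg

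The motif was picked after these sequences were seen. It was searched on both strands of the 250 upstream bases and was found in 4 of 4 of these genes, always on the strand of the gene, 84, 94, 223 and 206 bases before the RefSeq start of Elane, Prtn3, Mpo and Ctsg. Of 27025 mouse promoters, 2109 (7.80%) held it on either strand. These matches describe letters in a window and were not set beside any binding data.

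As a description of what the rule chose, the median sum of the members was 130 UMIs of the 4 genes, with a range from 10 to 2851, and 335 members (72.0%) had at least 1 UMI of each gene. Prtn3 was found in 97.8% of the members, Elane in 93.8%, Mpo in 87.5% and Ctsg in 81.9%. Just inside the rule, 24 members had 10 to 12 UMIs, and just outside it 49 barcodes had 7 to 9. Those inside carried a Kit UMI in 20.8% of cases and those outside in 12.2%. In the 4 libraries used, at least 1 of these UMIs was found in 9.92% to 16.9% of mature neutrophil-like, 17.0% to 54.2% of immature neutrophil-like and 28.6% to 44.0% of monocyte-like barcodes, populations defined below by fewer than 10 of them. It was found in 23.0% to 25.9% of the barcodes outside all named populations, which include barcodes that the limits on C1q and Cd79a had left out and that held up to 1624.

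The members made up 0.0390%, 1.57% and 1.80% of the kept barcodes of control replicates 1 to 3 and 0.140%, 0.925% and 1.29% of those of knockout replicates 1 to 3. The 95% Wilson intervals ran from 1.33% to 1.86% and from 1.53% to 2.10% in control replicates 2 and 3, and from 0.752% to 1.14% and from 1.05% to 1.58% in knockout replicates 2 and 3. They cover counting error only. Replicate 1 of either group lay far below the other libraries, and control replicate 2 and 3 lay above knockout replicate 2 and 3. The control libraries averaged 1.14% ± 0.956 (SD, n = 3) and the knockout libraries 0.785% ± 0.588. Their difference, -0.350 percentage points, did not exceed the SD of the groups (exact permutation test, two-sided, p = 0.6, where the smallest possible p is 0.1). Without replicate 1 of both groups it was -0.576 (exact p = 0.333, the smallest possible). With 1 library left out it ran from -0.898 (without control replicate 1) to -0.0199 (without control replicate 3).

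Set beside the neutrophil lineage of the same library, control replicates 1 to 3 had 2.38, 7.52 and 26.4 members per 100 neutrophil-like barcodes and knockout replicates 1 to 3 had 1.46, 8.74 and 13.5. The groups overlapped, and control replicate 3 stood above all other libraries. The control average was 12.1 ± 12.7 (SD, n = 3) and the knockout average 7.88 ± 6.04, a difference of -4.23 (exact permutation test, two-sided, p = 0.8), and the difference turned to 2.93 without control replicate 3. In libraries of dissociated tissue, a lower share of a cell type and a lower yield of it cannot be told apart.

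**Figure D1:**
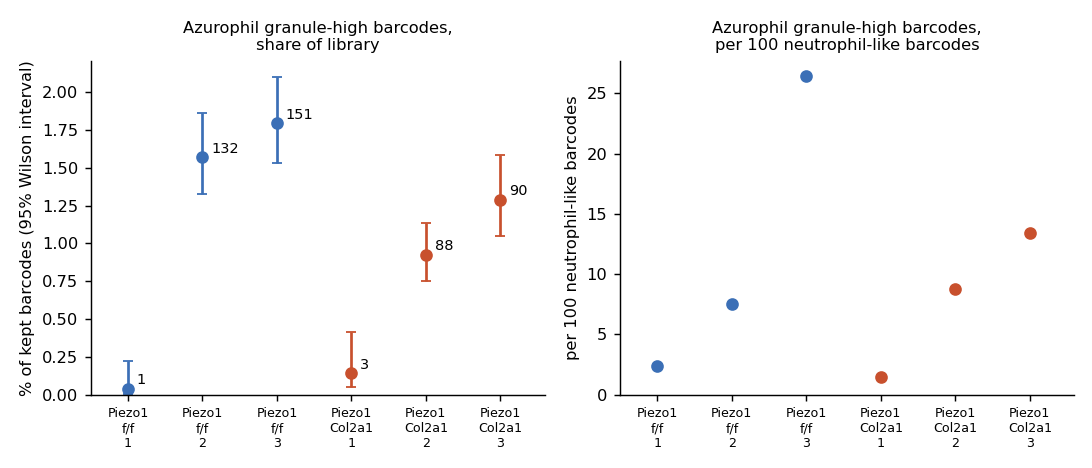
Share of azurophil granule-high barcodes in each library. Left, percent of kept barcodes with 95% Wilson intervals and the number of members beside each point; right, members per 100 immature and mature neutrophil-like barcodes. Blue points are Piezo1f/f and red points Piezo1Col2a1 libraries, by replicate number. Replicate 1 of both groups lies near 0, and control replicate 3 is highest in both panels, at 1.80% and 26.4.

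The name progenitor was checked against Kit, which the rule did not use. A Kit UMI was found in 117 of the 465 members (25.2%), so in most members the transcript was not found at their depth. The share was 34.1% and 29.1% in control replicates 2 and 3 and 12.5% and 15.6% in knockout replicates 2 and 3. Mature neutrophil-like barcodes, which should lack Kit, had a Kit UMI in 2.30%, 1.13%, 1.21% and 2.38% in the same order, at median depths of 1844, 1866, 2121 and 2381.5 UMIs against 18148.5, 8705, 13150 and 12691.5 in the members. The members lay above this background in all 4 libraries before thinning. After each barcode was thinned to 1000 UMIs the shares in members were 1.52%, 5.96%, 0.00% (which allows up to 3.41%) and 1.11%, and those in mature neutrophil-like barcodes 0.41%, 0.28%, 0.17% and 0.79%, so that at equal depth control replicate 3 stood apart most and knockout replicate 2 had none. As a level summed over barcodes, Kit stood at 36.0, 45.8, 11.97 and 13.1 counts per 1000000 UMIs (CPM) in the members and at 9.97, 6.82, 4.54 and 6.62 in mature neutrophil-like barcodes. In mature neutrophil-like barcodes of knockout replicate 1 it stood at 28.8 CPM, above the members of knockout replicates 2 and 3. Myb, a factor of dividing haematopoietic progenitors, was found more often than Kit, in 69.7%, 53.0%, 58.0% and 45.6% of the members against 0.58%, 0.85%, 0.69% and 0.79% of mature neutrophil-like barcodes, and after thinning in 14.4%, 17.2%, 15.9% and 7.78% against 0.17%, 0.57%, 0.00% and 0.00%. Because Kit was found in a minority of the barcodes at these depths, the population is called azurophil granule-high here, after its leading genes.

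The share of members with a Kit UMI was 31.6% ± 3.501 (SD, n = 2) in the controls and 14.03% ± 2.16 in the knockout libraries, and the groups did not overlap. The difference of -17.6 percentage points had the smallest p that 2 libraries against 2 allow (two-sided exact permutation test, p = 0.333), so this design cannot reach 0.05. It was -16.7 without the members that carried basophil or mast cell transcripts, described below, and -3.18 after thinning.

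The members divided by genes outside the rule. A specific-granule sum (Ltf, Ngp and Camp) of at least 10 UMIs was found in 209 members (44.9%), a Kit UMI without that sum in 81 (17.4%) and neither in 175 (37.6%). In control replicates 2 and 3 the specific-granule group was 38.6% and 47.0% of the members, and in knockout replicates 2 and 3 it was 59.1% and 38.9%. The Kit group was 28.0% and 15.9% in the controls and 6.82% and 12.2% in the knockout libraries. The remaining members were 33.3%, 37.1%, 34.1% and 48.9%. Stromal barcodes, which should lack these genes, reached the same sum in 0.862%, 0.651%, 2.61% and 1.93% of cases in control replicates 2 and 3 and knockout replicates 2 and 3, at median depths of 12521, 9612.5, 9534 and 14080 UMIs. Per 10000 UMIs, the median member of the specific-granule group had 694, 219, 823 and 199.9 UMIs of the 3 genes, against 1.35, 0.589, 1.52 and 0.765 in the other members and 1.12, 0, 1.45 and 0.806 in stromal barcodes. Only 36 members had both a Kit UMI and the specific-granule sum. The names of these groups carry no claim on how a cell moves from one to another.

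Each group had its own mix of the 4 azurophil transcripts. A 3′ library counts each transcript irrespective of its length, so these shares can be set side by side. In the Kit group the median member had 445 UMIs of the 4 genes at a median depth of 19939 UMIs, and Mpo made up 25.0% and Ctsg 16.7% of them at the median. In the specific-granule group the median sum was 130 UMIs at a depth of 11506, Elane made up 39.3% and Prtn3 42.9%, while Mpo made up 8.86% and Ctsg 3.26% of it. Members with neither mark had a median sum of 69 UMIs at a depth of 13537, led by Prtn3 at 44.3%. A Kit UMI is found more readily in a deep barcode, so the sums themselves cannot be compared. As levels over the members of all libraries, Mpo stood at 6444, 2381 and 2319 CPM and Ctsg at 4888, 1321 and 2115 in the Kit, specific-granule and remaining members. The level of Elane was not ordered alike in every library, at 6068, 6478 and 10138 CPM in the Kit group of control replicates 2 and 3 and knockout replicate 3 and at 4696, 8039 and 12481 in their specific-granule groups. Within these 3 libraries the median share of Elane in the sum was higher in the specific-granule group (36.1%, 32.3% and 47.3%) than in the Kit group (18.2%, 20.1% and 34.8%), and that of Mpo lower (11.8%, 15.6% and 5.42% against 29.3%, 22.6% and 19.9%). Knockout replicate 2 had too few members with Kit for such a value. Of the 81 members of the Kit group 17 carried the basophil or mast cell transcripts described below, and without them the median shares were 23.0% Mpo, 15.5% Ctsg and 25.1% Elane in the remaining 64.

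Genes outside the 4 also separated the groups, over members of all libraries together and with no test. Fcnb, the ficolin of specific and gelatinase granules, stood at 1283 CPM in the specific-granule group against 86.3 in the Kit group and 69.3 in members with neither. Cebpe, the transcription factor that switches on specific-granule genes, stood at 447, 152 and 36.8 CPM in the same order. Cd34, a marker of stem and progenitor cells, was highest in the Kit group at 103 CPM, against 19.1 and 37.2. Members with neither mark had the most Irf8, the factor that favours monocyte and dendritic fates, at 193 CPM against 48.5 in the Kit group and 3.82 in the specific-granule group. They also had the most F13a1 (572 against 124 and 31.7 CPM), Ccr2 (246 against 41.4 and 5.35) and Csf1r (75.5 against 18.9 and 14.5), which belong to the monocyte lineage. Ly6c2, a surface protein of monocytes, did not separate the groups in this way, at 883 CPM in the Kit group, 1384 in members with neither and 1121 in the specific-granule group, and in control replicate 2 it was higher in the specific-granule group (1667) than in members with neither (1629). A sum of at least 5 UMIs of Ccr2, Ly6c2, F13a1 and Ms4a4c was found in 352 members (75.7%), 165 of them among the 209 of the specific-granule group. The proliferation gene Mki67 was present in every group, at 253 CPM in the Kit group, 287 in members with neither and 388 in the specific-granule group. In knockout replicate 3 it was higher in members with neither (194) than in the specific-granule group (170).

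**Figure D2:**
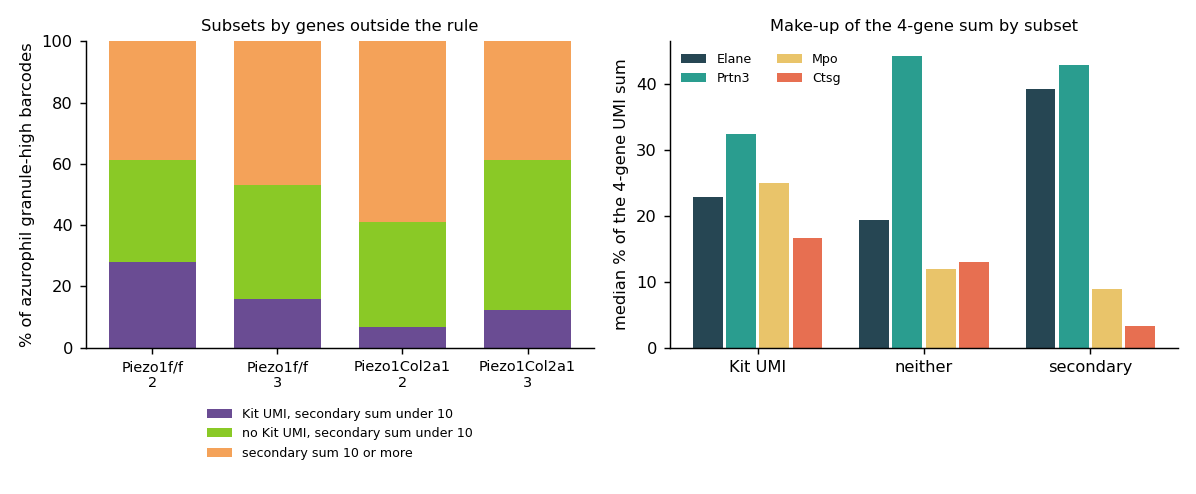
Subsets of the azurophil granule-high barcodes. Left, percent of the members of each library in the 3 groups set by Kit and by the specific-granule sum of Ltf, Ngp and Camp, here called secondary; right, the median percent of the 4-gene UMI sum contributed by Elane, Prtn3, Mpo and Ctsg in each group over all libraries. The Mpo bar is 25.0% in the Kit group and 8.86% in the secondary group, where the Elane bar is 39.3%.

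Some members carried markers of basophils and mast cells, and their lineage was not tested. At least 3 UMIs of Cpa3, Ms4a2, Fcer1a, Mcpt8 and Prss34, genes of basophils and mast cells, were found in 32 members, of which control replicates 2 and 3 held 15 and 10 and knockout replicates 2 and 3 held 2 and 4. These members held 2834 of the 2836 UMIs of Prss34, 1972 of the 2022 of Mcpt8 and 704 of the 707 of Cpa3 over all members. A Kit UMI was found in 17 of them and the specific-granule sum in 1. Their 4-gene sum was led by Ctsg, with a median of 34.6%, and held little Elane, with a median of 4.85%. In control replicate 3 the median was 91.7% Ctsg and 0 Elane, so there the rule had taken in barcodes through a single gene.

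Markers of other cell types in the members were as follows. The summed level of 8 stromal markers was 7233 and 8953 CPM in control replicates 2 and 3 and 17855 and 16631 in knockout replicates 2 and 3, with Col1a1 or Col2a1 the most abundant gene in every library. Those of osteoclasts (Acp5, Ctsk, Mmp9 and Atp6v0d2) summed to 66.6 and 287 CPM against 1185 and 1585, led by Ctsk or Acp5. Those of mast cells, basophils and eosinophils summed to 2065 and 2145 CPM against 198 and 144, led by Prg2 in control replicate 2, Prss34 in control replicate 3 and Mcpt8 in the knockout libraries. The stromal and osteoclast sums were thus higher in both knockout libraries and the basophil sum higher in both controls. Macrophage markers were low in every library, at 31.4 and 53.5 against 136 and 69.5 CPM, with the C1q genes limited by the rule. Endothelial markers summed to between 30.9 and 130.2 CPM and lymphocyte markers to between 398 and 616, the latter led by Nkg7. Erythroid and megakaryocyte markers were highest in control replicate 3 at 804 CPM, led by Hbb-bs, against 32.2, 35.1 and 9.27 in the other libraries. The limit on C1q removed 45 barcodes from knockout replicate 2, against 3, 4 and 8 in the other 3 libraries. At least 100 UMIs of Col1a1, Col1a2, Col3a1, Sparc and Bgn per 10000 UMIs were found in 6 and 11 members of control replicates 2 and 3. In knockout replicates 2 and 3 they were found in 14 and 8. The part of these markers in the differences between groups was not tested.

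The members were compared with 3 populations of the same libraries, all with fewer than 10 UMIs of the 4 azurophil genes and with no Cd79a UMI and fewer than 5 C1q UMIs. Each also needed at least 10 UMIs of its gate genes per 10000 UMIs. The 1622 immature neutrophil-like barcodes had at least 10 UMIs of Ltf, Ngp and Camp. The 2629 mature neutrophil-like barcodes had fewer of these, and at least 5 UMIs of Cxcr2, Retnlg, Il1r2 and Csf3r and no fewer than of the monocyte genes. The 2341 monocyte-like barcodes had at least 5 UMIs of Ccr2, Ly6c2, F13a1 and Ms4a4c, more than of the neutrophil genes, and fewer than 3 UMIs of Cd3d, Cd3e, Nkg7 and Siglech. The last of these gates took in chondrocyte barcodes through F13a1, as stromal markers summed to 51970, 33249, 12186 and 97446 CPM in control replicates 2 and 3 and knockout replicates 2 and 3. A stricter version, chosen after the data were seen, left out barcodes with at least 200 stromal-marker UMIs per 10000. It kept 1631 barcodes, in which the sums were 2358, 3343, 5556 and 8731 CPM.

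UMIs were summed per library and population, scaled by TMM in edgeR and tested by quasi-likelihood with the library as a block, and an adjusted p (Benjamini-Hochberg, over all genes tested) under 0.05 was the threshold. The genes of the gates were left out, and the others co-vary with them in the same cells, so the counts describe how far the populations lie apart. Against immature neutrophil-like barcodes 2517 of 9746 genes (25.8%) were higher in the members and 2810 (28.8%) lower. Against mature neutrophil-like barcodes 2891 of 9177 (31.5%) were higher and 3104 (33.8%) lower. Against monocyte-like barcodes as gated 2002 of 11187 (17.9%) were higher and 2191 (19.6%) lower, and with stromal barcodes left out 2318 of 9976 (23.2%) were higher and 2380 (23.9%) lower. The median log2 fold change over all genes tested was -0.04, -0.03, -0.07 and -0.00 in these 4 comparisons. Without TMM, 73.3% of the genes past the threshold against immature neutrophil-like barcodes were higher, against 47.2% with it, and 37.6% against monocyte-like barcodes as gated, against 47.7%. All 4 comparisons use the same member libraries, so their results are not independent of each other.

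Besides the 4 genes of the rule, 14 genes of azurophil granules and their processing were tested. Against immature neutrophil-like barcodes 8 were higher and 2 lower, against mature neutrophil-like barcodes again 8 and 2, and against monocyte-like barcodes without stroma 7 and 6, with median log2 fold changes of 0.75, 0.58 and 0.25. Against monocyte-like barcodes as gated 6 were higher and 1 lower (4 without knockout replicate 3), with a median of 0.21. Of all genes, 25.8%, 31.5%, 23.2% and, as gated, 17.9% were higher in the same order. Those lower were 28.8%, 33.8%, 23.9% and 19.6%.

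Ms4a3, a membrane protein of granulocyte-monocyte progenitors and their progeny, stood at 964, 1060, 740 and 748 CPM in the members of control replicates 2 and 3 and knockout replicates 2 and 3. It stood at 71.7, 110, 61.7 and 26.6 in immature neutrophil-like barcodes, at 3.44, 5.85, 0 and 4.42 in mature ones, and at 3.87, 1.65, 2.11 and 1.70 in monocyte-like ones without stroma. No library of another population came near the lowest of the members. The log2 fold changes were 3.43 (SE 0.23, edgeR adjusted p = 4.66e-06), 8.01 (SE 0.38, adjusted p = 4.54e-08) and 8.59 (SE 0.24, adjusted p = 8.04e-09).

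Cst7, which encodes cystatin F, an inhibitor of the cysteine proteases of granules, was at 158, 90.9, 153 and 151 CPM in the members and at most 2.57 in immature, 5.85 in mature and 4.95 in monocyte-like barcodes without stroma. Prss57, a further azurophil serine protease, was at 197, 182, 177 and 119 CPM in the members against 8.90, 20.2, 13.2 and 2.45 in immature neutrophil-like barcodes. Both were higher in the members in every library and comparison.

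Serpinb1a, a cytosolic inhibitor of elastase, cathepsin G and proteinase 3, did not separate the members from immature neutrophil-like barcodes. It stood at 787, 678, 673 and 381 CPM in the members and at 668, 631, 472 and 288 in immature neutrophil-like barcodes (log2 fold change -0.08, SE 0.14, edgeR adjusted p = 0.642). In mature neutrophil-like barcodes it was at 16.5, 20.5, 18.7 and 19.9 CPM, and it was higher in the members by 4.95 on the log2 scale (SE 0.22, edgeR adjusted p = 2.89e-08).

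Ctsc, the dipeptidyl peptidase that activates the granule serine proteases, was higher than in immature and in mature neutrophil-like barcodes (log2 fold changes 2.31 and 1.58) and lower than in monocyte-like barcodes without stroma (-1.70), where it stood at 641, 599, 571 and 511 CPM against 201, 120.5, 144 and 207 in the members. Lyz2, the lysozyme gene of both granulocytes and monocytes, was lower than in immature neutrophil-like barcodes and in monocyte-like barcodes without stroma (log2 fold changes -1.56 and -2.08). The lysosomal hydrolase genes Hexa and Gusb and the membrane protein gene Lamp1 were also lower than in monocyte-like barcodes without stroma (-0.61, -0.46 and -0.98). None of these 5 genes passed against monocyte-like barcodes as gated, where the log2 fold changes were -0.77 for Ctsc, -1.05 for Lyz2, -0.17 for Hexa, 0.17 for Gusb and -0.60 for Lamp1 (edgeR adjusted p = 0.263, 0.0717, 0.581, 0.638 and 0.0631).

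The specific and gelatinase granule genes were lower than in immature neutrophil-like barcodes and divided in the other comparisons. Of 11 tested against immature neutrophil-like barcodes, whose gate had used Ltf, Ngp and Camp, 10 were lower in the members and 0 higher, with a median log2 fold change of -3.11. Over all genes 28.8% were lower and 25.8% higher. Mmp8, the neutrophil collagenase, was at 33.7, 14.8, 19.96 and 31.7 CPM in the members against 1315, 323, 1046 and 1322 (log2 fold change -5.65, SE 0.22, edgeR adjusted p = 1.40e-07). Cd177, a surface protein of neutrophils, had a log2 fold change of -3.21 and Lcn2, which binds bacterial siderophores, one of -3.11. Fcnb was the gene of the list that did not pass, at 701, 445, 687 and 228 CPM in the members against 366, 499, 248 and 63.0 (log2 fold change 0.62, edgeR adjusted p = 0.0807). Against mature neutrophil-like barcodes 3 of the list were higher (Chil3, Fcnb and Cybb) and 5 lower, beside 31.5% and 33.8% of all genes, and Fcnb had a log2 fold change of 7.94. Against monocyte-like barcodes 4 of 10 were higher and 1 lower as gated (median 0.56), beside 17.9% and 19.6% of all genes. Without stroma 3 were higher and 4 lower (median 0.14), beside 23.2% and 23.9%. As gated, 2 were higher without control replicate 2 or without knockout replicate 2, and 4 lower without knockout replicate 3.

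Genes of mature neutrophils were lower in the members than in both neutrophil populations. Against immature neutrophil-like barcodes 12 of 13 tested were lower, with a median of -2.38, and against mature ones, whose gate had used Cxcr2, Retnlg, Il1r2 and Csf3r, 13 of 13, with a median of -4.41. Over all genes 28.8% and 33.8% were lower. Against monocyte-like barcodes as gated 3 of 12 were higher (S100a8, S100a9 and Hdc) and 4 lower (median -0.03), beside 17.9% and 19.6% of all genes. Without stroma 3 of 11 were higher and 5 lower (median -0.56), beside 23.2% and 23.9%. Il1b, the gene of interleukin 1 beta, was at 45.96, 30.3, 16.8 and 22.4 CPM in the members against 7787, 4628, 1914 and 2612 in mature neutrophil-like barcodes (log2 fold change -7.25, SE 0.22, edgeR adjusted p = 1.80e-09). Fpr1, a receptor for formylated bacterial peptides, was found at 1.53 CPM in control replicate 2 and at 0 in the other 3 libraries of the members, against 253, 112, 109.5 and 113 in mature neutrophil-like barcodes. S100a8, a subunit of calprotectin, was abundant also in the members, at 35913, 41479, 65251 and 26083 CPM. It had log2 fold changes of -2.14 against immature and -0.72 against mature neutrophil-like barcodes, and of 4.59 against monocyte-like barcodes without stroma. The share of its UMIs in the members that came from other cells was not tested.

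The 6 genes of the oxidative burst were all lower than in immature neutrophil-like barcodes (median log2 fold change -1.36), beside 28.8% of all genes. Cybb, the catalytic subunit of the phagocyte NADPH oxidase, was at 593, 404, 491 and 251 CPM in the members and at 1620, 1363, 1274 and 760 in immature neutrophil-like barcodes (log2 fold change -1.94, SE 0.13, edgeR adjusted p = 5.15e-06). In mature neutrophil-like barcodes Cybb was at 115, 89.7, 210 and 87.2 CPM, below every library of the members. Of the 6 genes 1 was higher and 3 lower in the members than in these barcodes, beside 31.5% and 33.8% of all genes. Against monocyte-like barcodes as gated 3 genes were higher (Ncf1, Ncf4 and Rac2) and 0 lower (median 0.92), beside 17.9% and 19.6% of all genes. Without stroma 2 were higher and 2 lower (median 0.01), beside 23.2% and 23.9%.

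**Figure D3:**
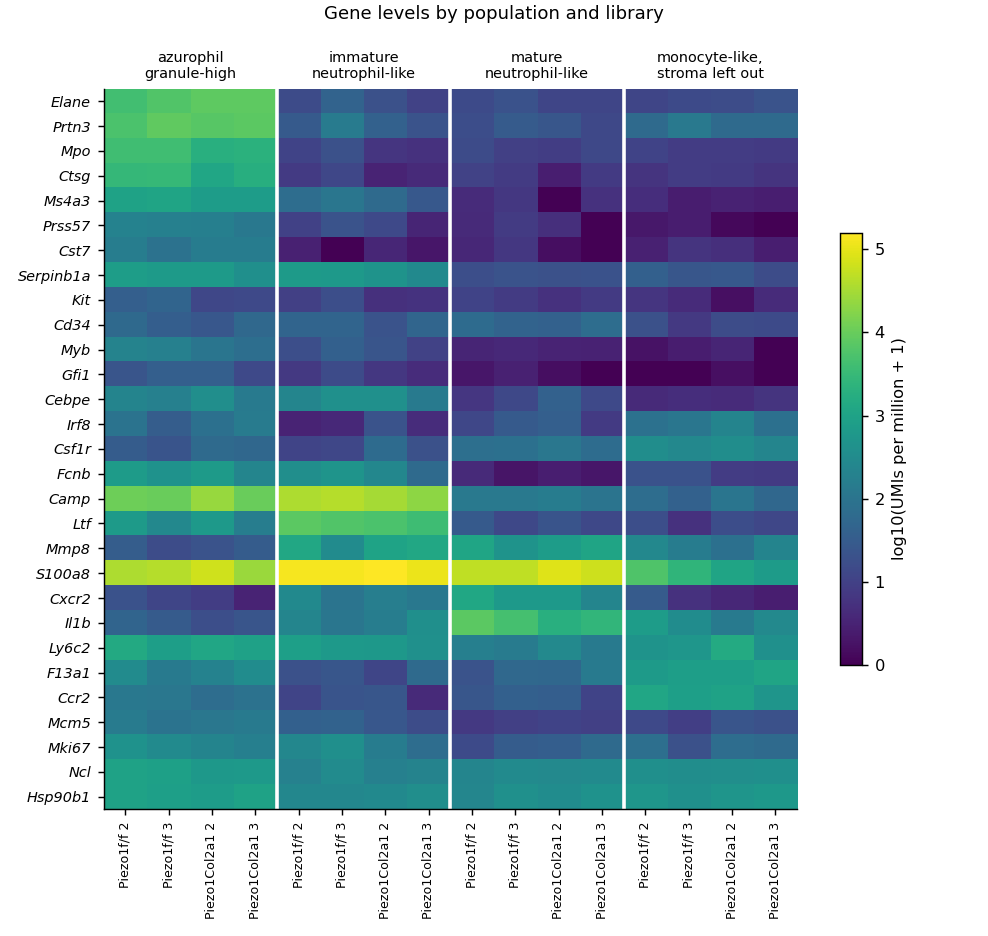
Levels of 29 genes in the members and in the 3 comparison populations, as log10 of CPM plus 1, with a column for each of the 4 libraries used. The rows of Elane, Prtn3, Mpo and Ctsg show the rule itself. Ms4a3, Cst7 and Prss57 are high only in the members, with Ms4a3 at 740 to 1060 CPM there, Serpinb1a extends into immature neutrophil-like barcodes, and Il1b is high in mature neutrophil-like barcodes.

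The genes of DNA replication were the most uniform difference. All 20 S-phase genes tested were higher in the members than in immature neutrophil-like, mature neutrophil-like and monocyte-like barcodes, with median log2 fold changes of 1.53, 3.08 and 3.09, the last without stroma (3.14 as gated). Over all genes 25.8%, 31.5%, 23.2% and, as gated, 17.9% were higher. Mcm5, a subunit of the replicative helicase, was at 145, 96.1, 112 and 129 CPM in the members, at 38.8, 41.9, 24.4 and 15.4 in immature neutrophil-like barcodes and at 6.19, 8.77, 10.2 and 8.83 in mature ones. Tyms, which makes thymidylate, was at 130, 94.1, 102 and 154 CPM in the members and at 41.0, 41.9, 28.3 and 37.5 in immature neutrophil-like barcodes.

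Mitotic genes divided the comparisons. Of 20 G2/M genes 20 were higher than in mature neutrophil-like barcodes, in monocyte-like barcodes without stroma (medians 3.00 and 2.50) and in monocyte-like barcodes as gated (3.08), but 13 than in immature neutrophil-like barcodes (median 0.57). That count was 3 without the library block, 5 with high doublet scores removed, and 7 without control replicate 2, knockout replicate 2 or knockout replicate 3. Of all genes, 25.8% were higher than in immature neutrophil-like barcodes, 31.5% than in mature ones and 23.2% than in monocyte-like ones without stroma (17.9% as gated). Mki67 was at 437, 300, 220 and 173 CPM in the members and at 253, 396, 150 and 71.1 in immature neutrophil-like barcodes, where it did not pass (log2 fold change 0.15, SE 0.22, edgeR adjusted p = 0.587). The members were higher in 3 of the 4 libraries and lower in control replicate 3. With each barcode thinned to 1000 UMIs, a Mki67 UMI was found in 29.5%, 24.5%, 23.9% and 16.7% of the members and in 10.2%, 30.1%, 10.3% and 3.12% of immature neutrophil-like barcodes, with the same exception. In mature neutrophil-like barcodes it was found in 0.91%, 1.14%, 1.73% and 2.38%. Without thinning the shares in the members were 90.9%, 79.5%, 89.8% and 77.8%.

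Of 8 tested genes that restrain the cell cycle, 6 were lower than in immature neutrophil-like barcodes, 6 lower and 1 higher than in mature ones, and 5 lower than in monocyte-like barcodes without stroma. As gated, 6 of 10 were lower than in monocyte-like barcodes and 1 higher. Over all genes 28.8%, 33.8%, 23.9% and, as gated, 19.6% were lower. Btg2, an antiproliferative gene, was at 121, 143, 58.3 and 68.0 CPM in the members, at 276, 307, 223 and 317 in immature neutrophil-like barcodes and at 1537, 1084, 669.5 and 603 in mature ones (log2 fold changes -1.99 and -3.43). Cdkn2d, an inhibitor of cyclin-dependent kinases, had a log2 fold change of -1.13 against immature neutrophil-like barcodes. It was higher than in monocyte-like barcodes as gated (log2 fold change 0.61, edgeR adjusted p = 0.0390) and did not pass with stromal barcodes left out (0.12, edgeR adjusted p = 0.461).

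Genes that make ribosomes and fold secreted proteins were also higher in the members. All 19 ribosome biogenesis genes tested were higher than in immature and mature neutrophil-like barcodes (medians 1.77 and 1.41), and 16 than in monocyte-like barcodes without stroma (median 1.11) or as gated (16 of 20, median 1.20, and 10 of 20 without control replicate 2). Over all genes 25.8%, 31.5%, 23.2% and, as gated, 17.9% were higher. Ncl, the gene of nucleolin, was at 969, 899, 580 and 637 CPM in the members, at 193, 313, 181 and 207 in immature and at 236, 312, 274 and 299 in mature neutrophil-like barcodes. Every library of the members was above every library of either neutrophil population. Npm1, a nucleolar chaperone, had log2 fold changes of 1.97, 1.71 and 0.93 in the 3 comparisons.

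Of 20 genes of protein folding and N-glycosylation in the endoplasmic reticulum, 20 were higher than in each neutrophil population (medians 1.21 and 1.22) 17 than in monocyte-like barcodes without stroma (median 0.85) and 15 as gated (median 0.72). As gated, 5 were higher without control replicate 2 and 8 without control replicate 3. Over all genes 25.8%, 31.5%, 23.2% and, as gated, 17.9% were higher than in immature, mature and monocyte-like barcodes. Sdf2l1, a part of the chaperone complex of that compartment, was at 296, 217, 129 and 179 CPM in the members and at 11.9, 11.97, 13.8 and 23.8 in immature neutrophil-like barcodes (log2 fold change 3.30, SE 0.24, edgeR adjusted p = 6.97e-06). Calr, the gene of calreticulin, a chaperone of myeloperoxidase, was higher by 1.92, 1.51 and 1.16 on the log2 scale in the 3 comparisons. Hspa5, the main chaperone of the compartment, was higher than in monocyte-like barcodes as gated (log2 fold change 0.51, edgeR adjusted p = 0.0499) and did not pass with stromal barcodes left out (0.35, edgeR adjusted p = 0.0839). Of 7 genes of haem synthesis, which supplies the haem group of myeloperoxidase, 4 were higher and 0 lower than in immature neutrophil-like barcodes (2 higher without control replicate 2), beside 25.8% of all genes higher. Against mature neutrophil-like barcodes 2 of 7 were higher, beside 31.5% of all genes. Against monocyte-like barcodes 2 of 8 were higher as gated and 4 of 8 without stroma, beside 17.9% and 23.2%. In each of these comparisons 0 were lower. Alas1, the first enzyme of that pathway outside the red cell lineage, was at 204, 168, 91.8 and 127 CPM in the members and at 103, 85.3, 46.3 and 49.0 in immature neutrophil-like barcodes (log2 fold change 0.67, SE 0.14, edgeR adjusted p = 0.00287).

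**Figure D4:**
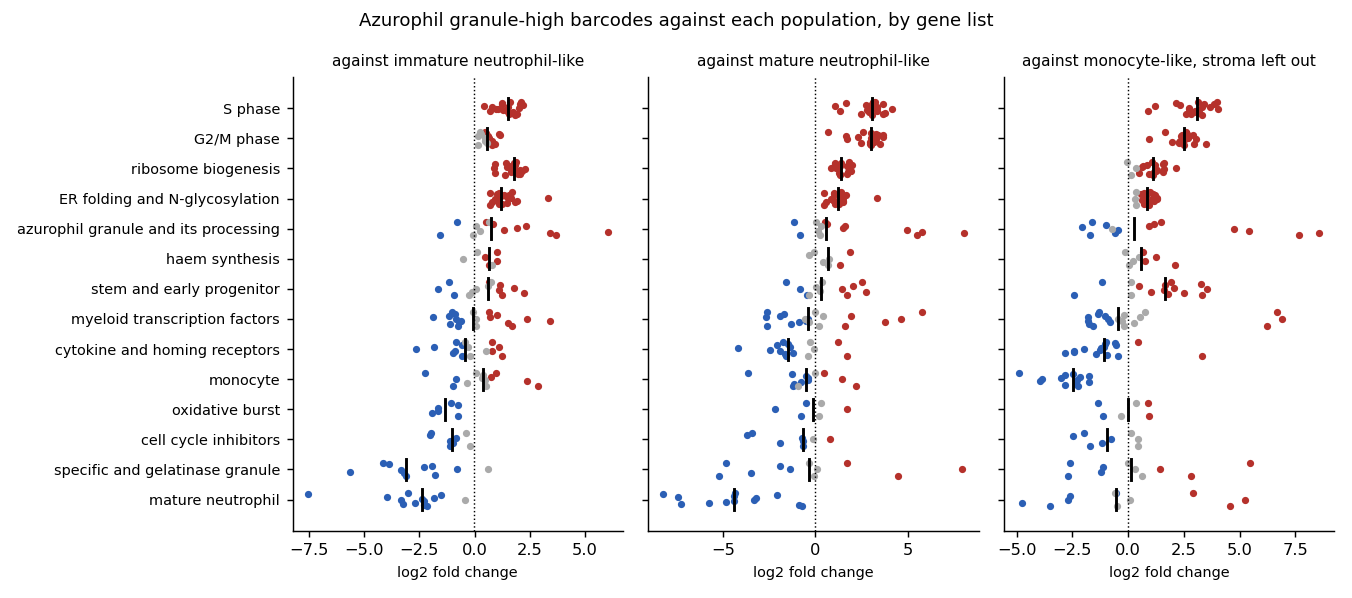
Log2 fold change of the members against each comparison population, by gene list, with genes of the gates left out. Each point is a gene, red if higher and blue if lower in the members at an adjusted p under 0.05 and grey otherwise, and the black bar is the median of the list. S-phase genes lie wholly to the right in all 3 panels, with medians of 1.53, 3.08 and 3.09, the last against monocyte-like barcodes without stroma, and mature neutrophil genes to the left in the neutrophil panels.

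Transcription factors were divided. Of 19 tested, 7 were higher and 9 lower than in immature neutrophil-like barcodes, 5 and 9 than in mature ones, and 3 and 9 than in monocyte-like barcodes without stroma (3 and 6 as gated). The higher counts against mature neutrophil-like and monocyte-like barcodes are no larger than the 31.5%, 23.2% and, as gated, 17.9% of all genes. Against immature neutrophil-like barcodes 25.8% of all genes were higher. Those lower were 28.8%, 33.8%, 23.9% and, as gated, 19.6% in the order above. Myb was at 206, 186, 105 and 74.2 CPM in the members, at 16.8, 38.9, 22.5 and 9.45 in immature and at 2.41, 2.92, 2.27 and 2.21 in mature neutrophil-like barcodes. The lowest member library was above the highest of every other population, and the log2 fold changes were 2.37 (SE 0.20, edgeR adjusted p = 1.39e-05) and 5.75 (SE 0.25, edgeR adjusted p = 2.85e-08).

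Gfi1, a repressor needed for granulocyte development, was at 22.2, 36.7, 35.9 and 13.1 CPM in the members against 6.42, 14.2, 6.104 and 3.501 in immature neutrophil-like barcodes (log2 fold change 1.49, edgeR adjusted p = 0.000809). Irf8 was at 93.1, 33.5, 81.4 and 147 CPM in the members. It was above immature neutrophil-like barcodes by 3.43 on the log2 scale and did not pass against monocyte-like ones without stroma (-0.45, edgeR adjusted p = 0.310) or as gated (0.42, edgeR adjusted p = 0.677). Cebpa, the factor that granulocyte-monocyte progenitors depend on, had the same order, higher than in immature and mature neutrophil-like barcodes (1.68 and 1.58) and not past the threshold against monocyte-like ones without stroma (-0.19) or as gated (0.48).

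Cebpe was shared with immature neutrophil-like barcodes, at 220, 186, 370 and 129 CPM in the members and 226, 408, 406 and 129 in the latter. The log2 fold change there was -0.72 (SE 0.18, edgeR adjusted p = 0.00767). In monocyte-like barcodes without stroma Cebpe was at 3.09 to 5.10 CPM. Spi1, Cebpb, Cebpd, Stat3, Bcl6, Fos and Junb, which include factors of mature and activated cells, were lower than in both neutrophil populations.

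Genes of stem and early progenitor cells were mixed. Against immature neutrophil-like barcodes 6 of 14 tested were higher and 3 lower, beside 25.8% and 28.8% of all genes. Over the alternatives run, the 6 became 3 to 9, and the median log2 fold change of 0.62 ran from 0.06 to 1.02. Of 12 tested against mature neutrophil-like barcodes 5 were higher and 3 lower, beside 31.5% and 33.8%. Of 15 tested against monocyte-like barcodes 11 were higher and 2 lower without stroma, beside 23.2% and 23.9%. As gated 8 were higher and 0 lower, beside 17.9% and 19.6%. Kit was higher in each comparison (log2 fold changes 1.25, 1.69 and, without stroma, 3.30). Cdk6, a kinase of dividing progenitors, was at 210, 216, 142 and 109 CPM in the members and at 21.5, 30.7, 23.5 and 29.8 in immature neutrophil-like barcodes (log2 fold change 2.25, SE 0.19, edgeR adjusted p = 1.35e-05). Gata2, a factor of stem cells and of the basophil and mast cell lineage, was higher by 1.77. Cd34 was at 60.1, 34.8, 24.7 and 57.2 CPM in the members, below the 64.3, 44.8, 40.3 and 71.8 of mature neutrophil-like barcodes in each library (log2 fold change -0.47, edgeR adjusted p = 0.0323). It did not pass against immature neutrophil-like barcodes (-0.26, edgeR adjusted p = 0.193). Egfl7, an endothelial gene, and Ly6a were the other genes of the list lower than in mature neutrophil-like barcodes (-0.85 and -1.57). Endothelial markers moved with them, at 130.2, 30.9, 55.9 and 119 CPM in the members against 338, 178, 315 and 298 in mature neutrophil-like barcodes, as did stromal markers, at 10290, 19643, 32494 and 37436 CPM in the latter. Pecam1 led the endothelial sum in all of these but the members of knockout replicate 3, led by Emcn, and the part of these markers was not tested. Cd34 was higher than in monocyte-like barcodes, by 1.78 on the log2 scale without stroma, where it stood at 18.6, 6.18, 14.8 and 13.6 CPM, and by 2.19 as gated. Flt3, a receptor of lymphoid-primed progenitors, was at 0.798 to 6.45 CPM, was lower than in monocyte-like barcodes without stroma (-2.43) and did not pass as gated (-1.41, edgeR adjusted p = 0.143), and Hlf, a factor of stem cells, did not pass against immature neutrophil-like barcodes.

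Receptors were divided between the comparisons. Of 15 cytokine and homing receptors tested, 4 were higher and 7 lower than in immature neutrophil-like barcodes and 2 and 10 than in mature ones, and of 16 tested against monocyte-like barcodes 2 were higher and 14 lower without stroma, and 2 and 2 as gated (10 lower without knockout replicate 3). The count of 4 of 15 lies near the 25.8% of all genes that were higher, and both counts as gated lie below the 17.9% and 19.6% of all genes. Of all genes, 28.8% were lower than in immature neutrophil-like barcodes. Against mature ones 31.5% were higher and 33.8% lower, and against monocyte-like ones without stroma 23.2% and 23.9%. Il3ra, the receptor chain for interleukin 3, was with Kit the gene that was higher in all 3 comparisons. Cxcr4, which retains granulocytes in the marrow, was at 67.8, 76.7, 23.2 and 44.8 CPM in the members against 501, 346, 102 and 169 in mature neutrophil-like barcodes (log2 fold change -2.43, SE 0.22, edgeR adjusted p = 4.04e-06). Csf1r, the receptor for macrophage colony-stimulating factor, was lower than in monocyte-like barcodes (log2 fold change -2.82 without stroma and -1.92 as gated) and did not pass against immature neutrophil-like ones (0.53, edgeR adjusted p = 0.0981).

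Against monocyte-like barcodes without stroma, all 13 monocyte genes tested were lower in the members, with a median log2 fold change of -2.47, and as gated 11 of 13 were lower, a count of 6 without control replicate 2, control replicate 3 or knockout replicate 2. Over all genes 23.9% were lower without stroma and 19.6% as gated. Genes of antigen presentation were among the 10 lowest genes. Cd74, the invariant chain, was at 34.1, 34.2, 386 and 98.1 CPM in the members against 7069, 2624, 6055 and 5662 (log2 fold change -5.80, SE 0.56, edgeR adjusted p = 2.03e-05). Knockout replicate 2 stood above the other libraries of the members for this gene. Against immature neutrophil-like barcodes 4 of 13 monocyte genes (Ms4a6c, Ly86, Mpeg1 and Ccl9) were higher and 3 lower, near the 25.8% and 28.8% of all genes, and 7 were higher without knockout replicate 2. As gated, the monocyte-like population was higher in the cartilage genes Col10a1 (log2 fold change of the members -5.52) and Snorc (-4.48), and without stroma neither passed (-1.25 and -1.12, edgeR adjusted p = 0.304 and 0.171).

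Genes were also ranked by log2 fold change among the 1082 of 9746 tested against immature neutrophil-like barcodes that passed the threshold in the same direction in every library with at least 100 CPM in the higher population, and the first of them were those of the basophil-like members. Prss34, a basophil protease, was at 341, 1187, 59.9 and 23.2 CPM in the members and had the highest log2 fold change of these (9.87), ahead of Mcpt8 (8.996), which has the same source. Among the genes next in rank were Dmkn (6.19), Gstm1, a glutathione transferase (3.603), Ass1, an enzyme of arginine synthesis (3.39), and Plac8 (2.93). Plac8 was at 2551, 3045, 1796 and 1990 CPM in the members and at 278, 249, 257 and 153 in immature neutrophil-like barcodes. The lowest genes in that comparison were Fpr2 (-6.06), another formyl peptide receptor, and Ly6g (-5.91), the surface antigen by which mouse neutrophils are sorted. Ly6g was at 19.9, 1.29, 19.2 and 3.09 CPM in the members and at 734, 227, 450 and 375 in immature neutrophil-like barcodes. Several stefin A genes (Stfa1, Stfa2l1, BC100530 and Gm5483) were also lower, but they share sequence and their counts are uncertain.

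The targeted gene was measured in the members although the Cre is not directed at them. Piezo1 was at 23.4 and 14.2 CPM in control replicates 2 and 3 and at 14.4 and 11.6 in knockout replicates 2 and 3 (log2 fold change -0.33, SE 0.39, edgeR adjusted p = 0.776), and the groups overlapped. It was lower than in monocyte-like barcodes without stroma (log2 fold change -0.90, SE 0.22, edgeR adjusted p = 0.00741) and did not pass against either neutrophil population. Apoe, an abundant macrophage product, was at 76.6 and 144 CPM in the controls and at 236 and 158 in the knockout libraries (log2 fold change 1.06, SE 0.40, edgeR adjusted p = 0.457). It was at 299 to 587 CPM in mature neutrophil-like barcodes, and the share of its UMIs in the members that came from other cells was not tested.

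Between the genotypes, 2 of 9141 genes tested in the members passed an adjusted p of 0.05, 1 higher (0.0109%) and 1 lower (0.0109%) in the knockout libraries, while 943 had an unadjusted p under 0.05. DESeq2 gave 40 genes, and edgeR with the replicate number as a block gave 0 (644 at an unadjusted p under 0.05). In simulated data the fit between genotypes recovered 9.38% of 2-fold and 76.8% of 4-fold changes, so few genes past the threshold do not show that few changed. Rps3a3, a copy of the ribosomal protein gene Rps3a1, was at 1505 and 571 CPM in the controls and at 0.798 and 3.09 in the knockout libraries (log2 fold change -8.77, SE 0.68, edgeR adjusted p = 0.0274). In all kept barcodes it was at 0.505, 967 and 365 CPM in control replicates 1 to 3 and at 282, 0.638 and 1.02 in knockout replicates 1 to 3, so that replicate 1 of each group went the opposite way. It did not pass with the replicate block (log2 fold change -8.62, edgeR adjusted p = 0.0690), with no C1q limit (-8.93, adjusted p = 0.0519) or with a sum of at least 5 UMIs (-9.01, adjusted p = 0.127), though the difference stayed as large. Its reads are hard to tell from those of Rps3a1, and its value is uncertain.

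Mt3, a metallothionein that binds zinc and copper, was at 0.766 and 3.22 CPM in the controls and at 61.5 and 69.5 in the knockout libraries (log2 fold change 5.40, SE 0.49, edgeR adjusted p = 0.0405). In all kept barcodes it was at 12.8, 18.1 and 23.1 CPM in the controls and at 8.95, 141 and 52.1 in the knockout libraries. Mt3 was thus higher in whole knockout replicates 2 and 3 than in the controls, as in the members, but lower in knockout replicate 1. It did not pass when members with basophil or mast cell transcripts were left out (log2 fold change 5.51, edgeR adjusted p = 0.134), with the replicate block (5.38, adjusted p = 0.220), with no C1q limit (5.57, adjusted p = 0.0830) or with a sum of at least 5 UMIs (5.38, adjusted p = 0.127), though the difference stayed about as large. With the limits set together at 500 UMIs and 20% mitochondrial UMIs it was 4.89 (adjusted p = 0.193).

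**Figure D5:**
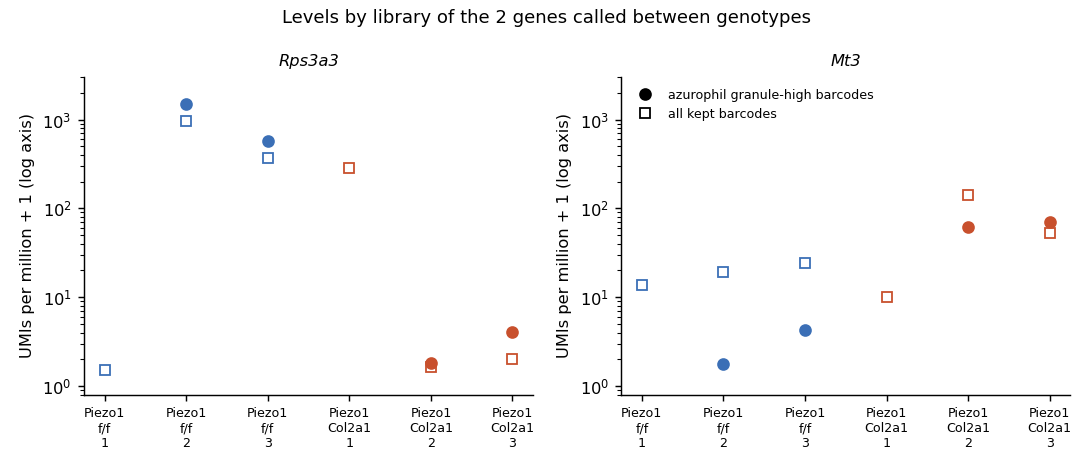
Levels of Rps3a3 and Mt3, the 2 genes past the threshold between genotypes, in CPM plus 1 on a log axis. Filled circles are the azurophil granule-high barcodes, shown for replicates 2 and 3, and open squares all kept barcodes of each of the 6 libraries. The squares of replicate 1 do not follow those of the other replicates: Rps3a3 is at 0.505 CPM in control replicate 1 and 282 in knockout replicate 1.

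No listed gene passed between genotypes in this fit, and the lists are described by groups that did not overlap. Over all genes 36.5% were lower and 9.92% higher in both knockout libraries than in both controls. Of 15 stem and early progenitor genes 10 were lower in both knockout libraries and 0 higher, with a median log2 fold change of -0.61 against -0.02 over all genes. Kit was at 36.0 and 45.8 CPM in the controls and 11.97 and 13.1 in the knockout libraries (log2 fold change -1.48, SE 0.32, edgeR adjusted p = 0.380). Gata2 was at 37.5 and 48.4 against 15.2 and 9.27 CPM (-1.59, adjusted p = 0.405), and Cdk6 at 210 and 216 against 142 and 109 (-0.54, adjusted p = 0.520). Myb, of the transcription factor list, was at 206 and 186 against 105 and 74.2 CPM (-0.91, adjusted p = 0.443).

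Mcpt8 and Cpa3, picked from 10 markers of mast cells, basophils and eosinophils, were also lower in both knockout libraries without passing the threshold. Mcpt8 was at 300.3 and 694 CPM in the controls against 75.04 and 49.4 (log2 fold change -2.79, edgeR adjusted p = 0.280). Cpa3 was at 157 and 130.2 against 42.3 and 31.7 (-1.73, edgeR adjusted p = 0.280). The 10 markers together summed to 2065 and 2145 CPM against 198 and 144. Over all genes 36.5% were lower and 9.92% higher in both knockout libraries. Members with basophil or mast cell transcripts numbered 15 and 10 in these controls and 2 and 4 in these knockout libraries, and their part in these differences was not tested. Picked from the 4 osteoclast markers, Acp5 (15.3 and 98.6 against 533 and 549 CPM), Ctsk (27.2 and 128 against 386 and 675) and Mmp9 (22.6 and 50.3 against 235 and 306) did not overlap either, with edgeR adjusted p of 0.380, 0.399 and 0.280.

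Under the alternatives run, some listed genes passed between genotypes. With no filter on low counts these were 3 specific-granule and 2 monocyte genes and 1 receptor gene higher, and 3 stem and early progenitor genes and 1 receptor gene lower. In any other setting they came to at most 1 specific-granule gene and 1 monocyte gene, higher in the knockout libraries, beside stromal and erythroid genes (at most 4 higher and 2 lower over all settings) and Y-linked or X-linked genes.

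The other lists fell on both sides of the 36.5% of all genes that were lower in both knockout libraries. Above it, G2/M genes had 11 of 20 lower and 1 higher (median log2 fold change -0.23), mature neutrophil genes 8 of 15 lower and 0 higher (-0.32), receptors 9 of 18 and 2 (-0.17), cell cycle inhibitors 4 of 8 and 0 (-0.18), transcription factors 8 of 19 and 1 (-0.02) and azurophil granule genes 6 of 14 and 2 (0.17). Below it, S-phase genes had 6 of 20 lower and 0 higher (0.15), ribosome biogenesis genes 6 of 20 and 1 (0.18), folding genes 6 of 20 and 1 (0.01), and specific-granule genes 2 of 13 and 2 (0.28). Genes of haem synthesis had 1 of 7 lower and 1 higher (0.22) and those of the oxidative burst 1 of 6 and 1 (0.20). Monocyte genes had 1 of 17 lower and 5 higher (0.44).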

How the data were processed

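Single-cell 3′ libraries, 3 of Piezo1f/f and 3 of Piezo1Col2a1 callus, were analysed from the raw UMI counts per gene and barcode that the authors deposited. Per the file headers, both libraries numbered 1 went through Cell Ranger 6.1.1 and the other 4 through 6.1.2, and the submitters' processing notes name the GRCm38 genome. About 5000 cells were aimed at per library. The files held 4603, 9392 and 9754 barcodes in the controls and 3482, 11447 and 8266 in the knockout libraries, of which 2562, 8402 and 8408, and 2140, 9512 and 6977, were kept with at least 1000 UMIs and at most 10% mitochondrial UMIs. No barcode was removed as a doublet. As an alternative, the highest Scrublet scores (scanpy 1.11.5) were taken out, at 0.8% of a library per 1000 barcodes. This took 15 of 132 and 19 of 151 members from control replicates 2 and 3. From knockout replicates 2 and 3 it took 17 of 88 and 5 of 90.

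UMIs were summed per library and population, for libraries with at least 10 barcodes in each, and tested in R 4.3.3 with edgeR 4.0.16 (filterByExpr, TMM, quasi-likelihood test, Benjamini-Hochberg adjustment over all genes tested). The library was a block between populations, and no block was used between genotypes. DESeq2 1.42.0 was an alternative. Shares were compared with exact permutation tests over libraries, and their Wilson intervals were computed with scipy 1.17.1. The scripts were tested on simulated data, where the fit between genotypes recovered 9.38% of 2-fold and 76.8% of 4-fold changes. Against immature neutrophil-like barcodes these were 77.6% and 100%, against mature ones 67.3% and 100%, and against monocyte-like ones 41.8% and 96.9%. The study's methods give 3 mice a group for these libraries, while its results text gives other numbers, and the labels tie no library to an animal, so p-values measure the spread between these libraries. CPM are UMIs per 1000000 UMIs of the shared genes. For the Kit, specific-granule and remaining members they are per 1000000 UMIs of all genes in the files.

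Genes named were those of the gene lists and marker lists, Piezo1 and Apoe, the 10 highest and the 10 lowest genes of each population comparison (adjusted p under 0.05, the same direction in every library, at least 100 CPM in the higher population), and up to 10 genes each way between genotypes. The members and the lists were chosen with earlier results of these data known. Stromal, basophil and C1q alternatives were added after the data were seen.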

Additional observations from a re-analysis of the deposited data

How the results depend on the processing

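The share of members was lower in the knockout libraries under every alternative tried, with differences from -0.898 to -0.0199 percentage points when 1 library was left out. Per 100 neutrophil-like barcodes, leaving out 1 library gave -9.10 to 2.93, turning the direction without control replicate 3 (2.93), and leaving out replicate 3 of both groups gave 0.149. The difference in the share with a Kit UMI ran from -20.1 to -15.1 with 1 library left out. With the replicate number as a block, the exact p of these 3 differences were 0.5, 0.75 and 0.5, where the smallest possible are 0.25, 0.25 and 0.5. Between genotypes, the count of 2 genes became 40 with DESeq2, 255 with no filter on low counts, 6 with high doublet scores removed, 1 with at least 500 UMIs and at most 20% mitochondrial UMIs, and 1 without basophil or mast cell members. It became 0 with a sum of at least 5 UMIs, with no C1q limit and with the replicate block (936, 1231 and 644 genes at an unadjusted p under 0.05), and 11 to 20 with 1 library left out, which leaves a lone library assumed to vary like the others (13 without control replicate 2, 11 without control replicate 3, 17 without knockout replicate 2, 20 without knockout replicate 3). Deviations of same-numbered libraries correlated at -0.156 over 9148 genes, the same for both pairs by construction with 2 libraries a group, so this decides little. Replicate 1 of both groups was run with another Cell Ranger version, and replicate 3 of both has a gene list of 55357 in place of 55450 genes. Whether a number marks a shared batch was not tested. Crossed pairs as a block gave 14 genes. Leaving out replicate 3 of both groups was not run for the genes between genotypes, since 1 library a group remained. Against immature neutrophil-like barcodes, 5327 genes became 3523 with no block and 3765 to 5386 with 1 library left out. Against mature ones, 5995 became 5058 to 6085. Against monocyte-like ones, 4193 became 1780 to 4795, the lowest without control replicate 2, and 2373 without control replicate 3. Without TMM the median log2 fold change of all genes shifted to 0.36 against immature neutrophil-like barcodes, -0.17 against monocyte-like ones and -0.24 between genotypes, and with DESeq2 to -0.16, 0.15 and -0.11, and to -0.21 against mature ones. With no filter on low counts 38.9% of the genes past the threshold against monocyte-like barcodes were higher, against 47.7%. Over the alternatives, the median of the transcription factors against immature neutrophil-like barcodes ran from -0.28 to 0.37 and that of the stem and progenitor genes against mature ones from -0.09 to 1.05, while S-phase, G2/M, ribosome biogenesis and folding genes had 0 lower genes under every alternative run. Without control replicate 2, 10 ribosome biogenesis and 5 folding genes were higher than in monocyte-like barcodes. The causes were not tested. For the genes taken by rank (the 10 highest and 10 lowest of 3 population comparisons and the 2 between genotypes, 62 fold changes in all), of 1062 values under alternatives, 1048 kept their direction and side of the threshold, 14 no longer passed and 0 reversed.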
